A study of Mus musculus with 4 samples.

Results

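Transcripts of 7 Wnt pathway genes were examined in RBP2-null and wild-type mouse embryonic fibroblasts: the ligand Wnt5a, the secreted inhibitors Sfrp1, Sfrp2, Dkk2 and Dkk3, and the target genes Axin2 and Lef1. All probe sets of the deposited table that the platform annotation gives exactly 1 of these symbols were taken, which gave 17 probe sets of 45037 once control probes were set aside. Every one of the 7 genes had at least 1 probe set bright enough for the fit, and 13 of the 17 probe sets were kept among 27022. The groups were 2 RBP2-/- lines, which lack the histone demethylase RBP2 (gene Kdm5a), and 2 wild-type lines, all primary embryonic fibroblasts at passage 3 with 1 Affymetrix array per line. The labels call the lines of each genotype independent, and they give neither the strain nor the deleted part of Kdm5a, so whether a Kdm5a probe set lies inside that part is not known here.

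Wnt proteins are secreted, lipid-modified ligands that bind Frizzled receptors on the cell surface. In the branch that runs through beta-catenin, binding together with the co-receptors Lrp5 and Lrp6 stops the destruction of beta-catenin, which then enters the nucleus and activates genes with transcription factors of the Tcf and Lef family. Wnt5a acts mainly through other branches, by way of receptors such as Ror2, and is a product of mesenchymal cells. Sfrp proteins bind Wnt ligands outside the cell, and Dkk proteins act on the Lrp co-receptors, although Dkk3 is a divergent member whose action on the pathway is disputed.

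Deposited medians ran from 21.5 to 43.7 between arrays, which were therefore quantile normalized. Levels below are log2(signal + 9) after that step, and differences are RBP2-null minus wild type on the same scale, which understates changes of dim probe sets. Wild-type replicate 1 stood apart from the others, with correlations across kept probe sets of 0.927 to 0.928 with the other arrays, against 0.948 to 0.965 among those. Kdm5a had 6.40 and 6.49 in the RBP2-null lines, against 6.72 and 7.65 in the wild-type lines, on its brightest probe set, with a difference of -0.74 and a standard error (SE) of 0.34 that did not pass the threshold in limma. Leaving out wild-type replicate 2 gave -0.27, and leaving out wild-type replicate 1 gave -1.23. The other 4 kept Kdm5a probe sets had differences of -1.24 on 1452360_a_at, where both RBP2-null lines again lay below both wild-type lines, and of -0.25, 0.15 and 0.24 with overlapping genotypes, and none passed the threshold in limma. Of the 10 fibroblast markers checked, among them Col1a1, Col1a2, Vim and Thy1, all were kept on at least 1 probe set. Of the markers of other cell types, 7 of 8 epithelial, 5 of 7 neural and 4 of 6 skeletal muscle genes were kept. So were 4 of 7 endothelial and 4 of 8 leukocyte genes, so being kept does not by itself tell cell types apart.

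No member passed the threshold, a limma adjusted p of 0.05 over all kept probe sets. The adjusted p of all 13 kept member probe sets was 1.00 and their smallest unadjusted limma p was 0.136, where 0.0037% of all kept probe sets, 1 of 27022, passed. At an unadjusted limma p under 0.05 there were 0 of the 13, beside 2.98% of all kept probe sets. Estimates lay above 0 for 7 of the 13 and below 0 for 6, with a median of 0.044, beside 50.4% above 0 and a median of 0.0031 over all kept probe sets. Both RBP2-null lines lay above both wild-type lines for 0 of the 13, beside 14.6% of all kept probe sets, and below them for 1, a Lef1 probe set, beside 14.9%. With 2 lines per genotype the precision is low: the standard errors of the 13 differences ran from 0.24 to 0.72 and all 13 of the 95% intervals held 0. An exact permutation test of 2 against 2 lines cannot give a two-sided p below 0.333.

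**Figure D1:**
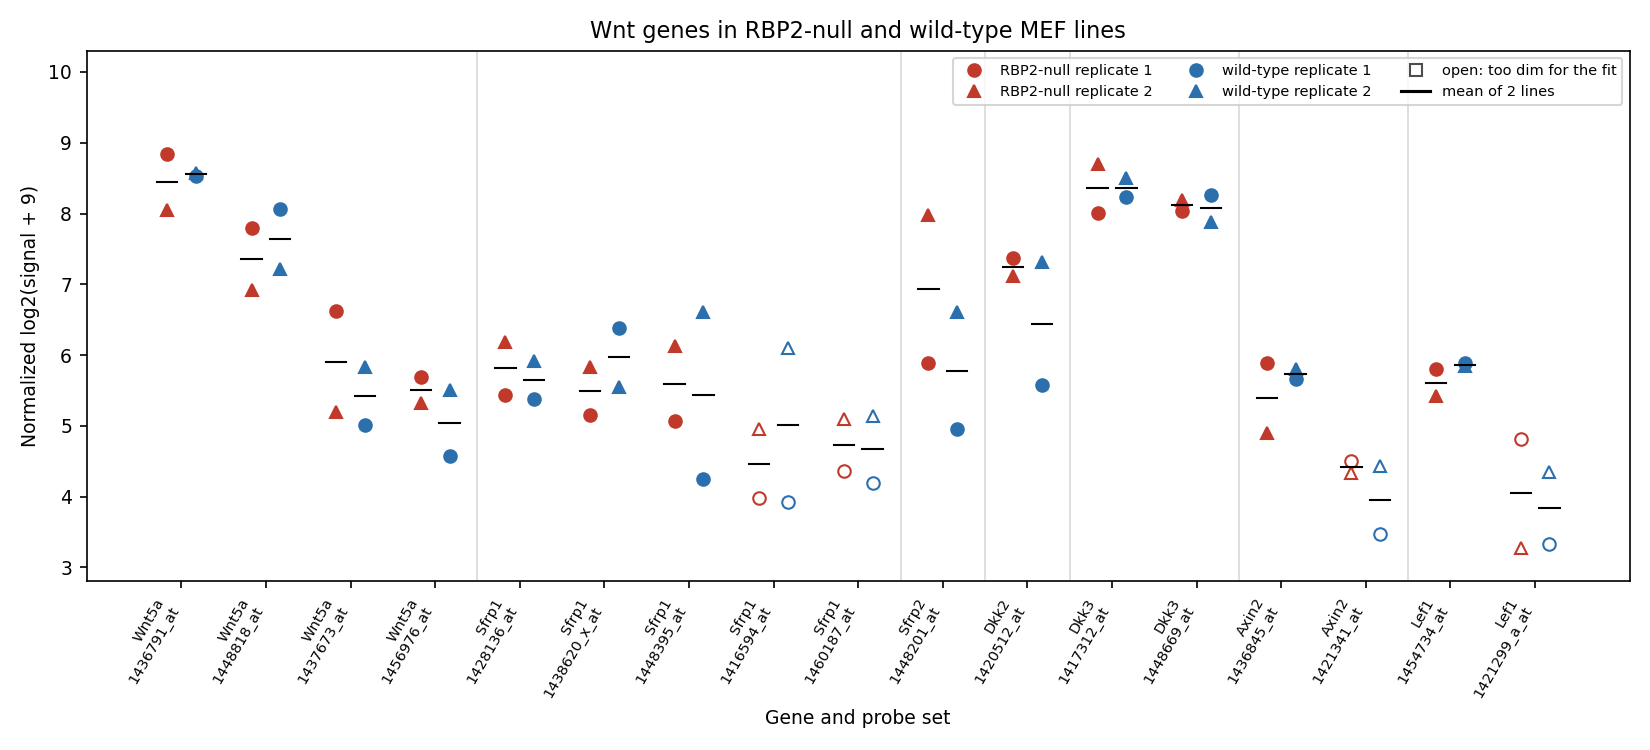
Normalized log2(signal + 9) of all 17 member probe sets, grouped by gene along the x axis, with RBP2-null lines in red left of wild-type lines in blue, circles for lines numbered 1, triangles for lines numbered 2, and bars at the mean of 2 lines. Open symbols mark the 4 probe sets too dim for the fit. The genotypes overlap for every probe set except 1454734_at of Lef1, and Sfrp2 spans 3.02 log2 units over the 4 lines.

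Wnt5a was read by 4 kept probe sets, and they differed in direction. The brightest, 1436791_at, had levels of 8.84 and 8.05 in RBP2-null lines, against 8.53 and 8.58 in wild-type lines. RBP2-null replicate 1 was the highest and RBP2-null replicate 2 the lowest of the 4, so the wild-type lines lay between them. The means were 8.44 ± 0.56 in RBP2-null cells and 8.55 ± 0.04 in wild-type cells (SD, n = 2 each), a difference of -0.11 (SE 0.28, 95% interval -0.76 to 0.54). Relative to the median of all probe sets with the arrays not scaled, or centred on their medians, it was 0.010, and without RBP2-null replicate 2 it was 0.29, so its sign is not settled.

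The next brightest Wnt5a probe set, 1448818_at, had 7.79 and 6.92 in RBP2-null lines, against 8.06 and 7.22 in wild-type lines, a difference of -0.28 (SE 0.38) that was 0.14 both without RBP2-null replicate 2 and without wild-type replicate 1. Here the lines numbered 1 were the higher ones in both genotypes. The remaining Wnt5a probe sets, 1437673_at and 1456976_at, had differences of 0.48 and 0.47 with SEs of 0.52 and 0.44. On 1437673_at the levels were 6.62 and 5.19 in RBP2-null lines, against 5.02 and 5.83 in wild-type lines, and without RBP2-null replicate 1 the difference was -0.23. On 1456976_at they were 5.68 and 5.32 in RBP2-null lines, against 4.57 and 5.50 in wild-type lines. On both of these dimmer probe sets wild-type replicate 1 was the lowest array, and without it the differences were 0.078 and 0.0026.

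Among the secreted inhibitors, Sfrp2 and Dkk2 had the largest differences of the members, each on its only probe set. In both, the size of the estimate changed strongly when single lines were left out. Sfrp2 binds Wnt ligands and is made by many mesenchymal cells. Its deposited signal on 1448201_at was 37.2 and 381.5 in RBP2-null lines, against 17.3 and 90.4 in wild-type lines. The normalized levels were 5.89 and 7.97 in RBP2-null lines, against 4.95 and 6.60 in wild-type lines. RBP2-null replicate 2 was the highest and wild-type replicate 1 the lowest, while RBP2-null replicate 1 lay below wild-type replicate 2, so the genotypes overlapped. The means were 6.93 ± 1.47 in RBP2-null cells and 5.78 ± 1.17 in wild-type cells (SD, n = 2 each).

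The Sfrp2 difference was 1.16 (SE 0.70), or 2.23-fold, with a 95% interval of -0.45 to 2.77. Its size was exceeded by 1.20% of all kept probe sets, while the unadjusted limma p was 0.136. The Sfrp2 difference shrank to 0.10 when RBP2-null replicate 2 was left out and to 0.33 when wild-type replicate 1 was. It grew to 2.20 without RBP2-null replicate 1 and to 1.98 without wild-type replicate 2, so its sign did not turn. Between lines of equal number it was 0.94 for the lines numbered 1 and 1.37 for those numbered 2. In a fit with the number as a block the unadjusted limma p of Sfrp2 was 0.000756 and the adjusted p 0.166, in a fit where 49 of all kept probe sets passed the threshold. Since these are bulk cultures, more cells that make a transcript and more of it per cell cannot be told apart.

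Dkk2 had 7.37 and 7.11 in RBP2-null lines, against 5.58 and 7.31 in wild-type lines, on 1420512_at. Wild-type replicate 1 was low, and the other 3 lines lay within 0.25 log2 units of each other. The means were 7.24 ± 0.18 in RBP2-null cells and 6.44 ± 1.22 in wild-type cells (SD, n = 2 each), a difference of 0.80 (SE 0.50, 95% interval -0.34 to 1.93). Leaving out wild-type replicate 1 gave -0.071 for Dkk2, whereas leaving out wild-type replicate 2 gave 1.65 with a limma adjusted p of 0.0671, the smallest of any member in any setting tried, with 41 of all kept probe sets past the threshold there. Leaving out either wild-type line thus moved the Dkk2 estimate strongly. Wild-type replicate 1, the low array for Dkk2, also stood apart over all probe sets. Why it was low was not tested.

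The stretches just before the RefSeq start sites of Sfrp2 and Dkk2 (RefSeq, GRCm38.p6, plus strand) are shown because these are the members with the largest estimates, with a TATA motif, TATAAA on either strand, in capitals. A stretch of a Lef1 window is shown because it holds the one match among the members' windows to a motif that Tcf and Lef factors are known to bind, searched as CTTTGAT or CTTTGAA or CTTTGTT or CTTTGTA on either strand, in capitals.
Sfrp2, chr3:83766221-83766320: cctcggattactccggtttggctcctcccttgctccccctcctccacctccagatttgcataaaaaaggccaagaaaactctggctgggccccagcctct
Dkk2, chr3:132085192-132085291: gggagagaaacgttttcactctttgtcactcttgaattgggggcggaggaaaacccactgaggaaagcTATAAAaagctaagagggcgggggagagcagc
Lef1, chr3:131156121-131156180: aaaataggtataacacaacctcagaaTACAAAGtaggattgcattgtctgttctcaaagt
Windows from 250 bases before to 50 bases after a start site were found for 4 of the 7 members, namely Sfrp2, Dkk2, Axin2 and Lef1, the last with 4 start sites, which made 7 windows. The Tcf and Lef motif was in 1 of the 7, on the minus strand of the fourth Lef1 window, beside 16.9% of all 32851 windows. TATAAA was in 2 of the 7, at 32 bases before the Dkk2 start and in the same Lef1 window, beside 13.6% of all windows. A match of letters is a description of these windows.

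Sfrp1, a further Wnt-binding inhibitor, had 3 kept and 2 dim probe sets. On its brightest, 1428136_at, the levels were 5.44 and 6.18 in RBP2-null lines, against 5.38 and 5.91 in wild-type lines, a difference of 0.16 (SE 0.39, 95% interval -0.73 to 1.06). The lines numbered 2 were the higher ones in both genotypes. The sign turned when single lines were left out, to -0.19 without RBP2-null replicate 2 and to -0.11 without wild-type replicate 1.

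The Sfrp1 probe set 1448395_at showed a wider gap between lines, with 5.07 and 6.12 in RBP2-null lines, against 4.25 and 6.61 in wild-type lines. Its difference between genotypes was 0.17 (SE 0.72), the largest standard error among the members. The sign of that value turned to -0.023 with the arrays not scaled or median-centred, and the value ranged from -1.06, with wild-type replicate 1 left out, to 1.36, with wild-type replicate 2 left out. On 1438620_x_at, whose ending marks probes that can bind several transcripts, Sfrp1 had 5.15 and 5.83 in RBP2-null lines, against 6.39 and 5.55 in wild-type lines, a difference of -0.48 (SE 0.41). It was -0.065 without wild-type replicate 1 and -0.14 without RBP2-null replicate 1, but -0.89 without wild-type replicate 2. The Sfrp1 probe sets too dim for the fit, 1416594_at and 1460187_at, had deposited signals of 4.7 and 32.6, and of 8.3 and 37.4, in RBP2-null lines, against 4.9 and 60.3, and 7.4 and 26.3, in wild-type lines. Except for 1438620_x_at, every Sfrp1 probe set was brighter in the line numbered 2 of each genotype after normalization.

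Dkk3, which is also studied as a growth suppressor, had the smallest differences of the members, on a pair of probe sets. Its levels on 1417312_at were 8.01 and 8.70 in RBP2-null lines, against 8.23 and 8.50 in wild-type lines, and on 1448669_at 8.04 and 8.19 in RBP2-null lines, against 8.26 and 7.88 in wild-type lines. The wild-type lines lay inside the range of the RBP2-null lines on the first probe set, and the RBP2-null lines inside that of the wild-type lines on the other. The differences were -0.0069 (SE 0.28) and 0.044 (SE 0.24). Their 95% intervals, from -0.64 to 0.63 and from -0.50 to 0.59, reach 1.55-fold and 1.51-fold at their upper ends. The sign of the first turned to 0.084 with the arrays not scaled or median-centred.

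Axin2, part of the complex that destroys beta-catenin and a widely used readout of beta-catenin activity, had 5.88 and 4.90 in RBP2-null lines, against 5.66 and 5.80 in wild-type lines, on 1436845_at. RBP2-null replicate 2 was low and the other 3 lines lay close together. The difference was -0.34 (SE 0.42, 95% interval -1.29 to 0.61), and it was 0.15 without RBP2-null replicate 2. The dim Axin2 probe set, 1421341_at, had deposited signals of 10 and 16.2 in RBP2-null lines, against 1.9 and 13 in wild-type lines.

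Lef1, a transcription factor that partners beta-catenin and is itself induced by it in many tissues, was the member whose genotypes did not overlap. On 1454734_at it had 5.81 and 5.42 in RBP2-null lines, against 5.89 and 5.84 in wild-type lines. RBP2-null replicate 1 was 0.031 below the lower wild-type line, so the separation was narrow. The difference was -0.25 (SE 0.34, 95% interval -1.02 to 0.52). With RBP2-null replicate 2 left out it was -0.052, and with RBP2-null replicate 1 left out -0.45. The other Lef1 probe set, 1421299_a_at, was too dim for the fit, with deposited signals of 14 and 0.9 in RBP2-null lines, against 1 and 11.8 in wild-type lines.

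**Figure D2:**
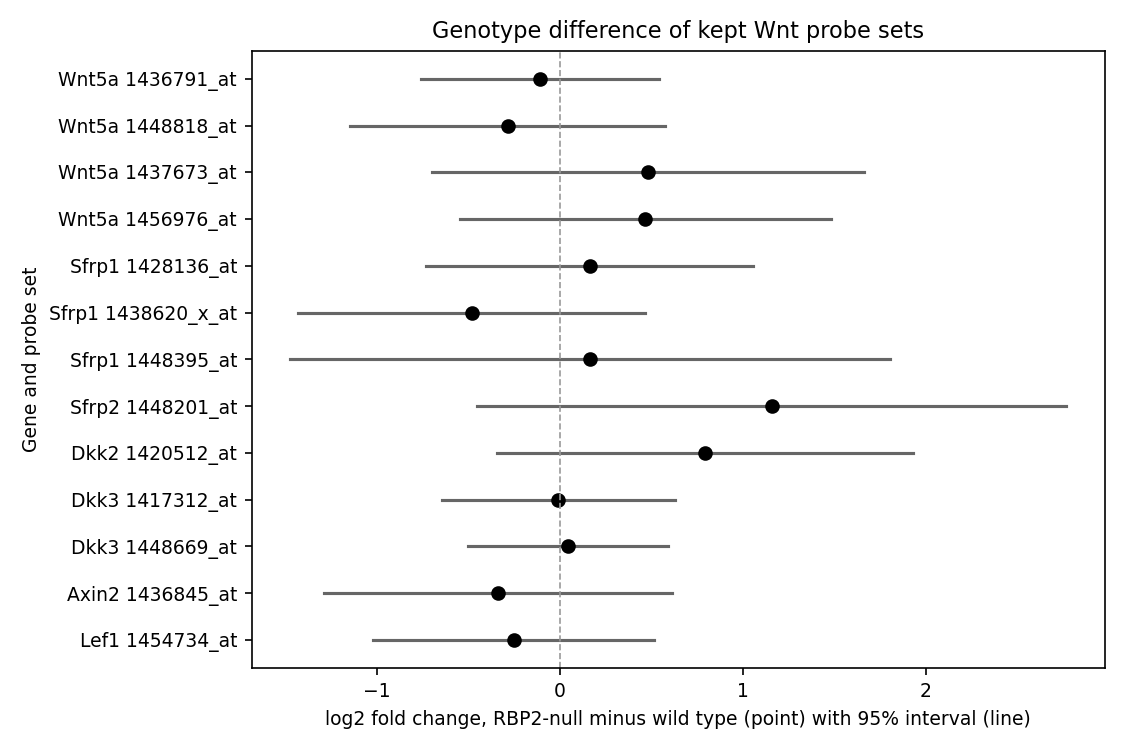
Difference in log2(signal + 9), RBP2-null minus wild type, for the 13 kept member probe sets (points) with 95% intervals from limma (lines), listed down the y axis by gene. Every interval crosses 0, and the largest estimates are those of Sfrp2 at 1.16 and Dkk2 at 0.80.

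The members also differed between the lines numbered 2 and those numbered 1, in ways that were at times larger than the differences between genotypes. The labels give these numbers no meaning beyond naming the lines. For 8 of the 13 kept member probe sets the number difference was the larger of the pair, beside 55.6% of all kept probe sets, so the members were not unlike the rest in this count. The members with the largest number differences were Sfrp2, higher by 1.87 in the lines numbered 2, and Sfrp1 on 1448395_at, higher by 1.71. Sfrp2 was higher in the line numbered 2 by 2.08 within the RBP2-null pair and by 1.65 within the wild-type pair, and Sfrp1 on that probe set by 1.05 and 2.37. A larger number difference was found for 0.170% of all kept probe sets in the case of Sfrp2 and for 0.270% in that of Sfrp1. Wnt5a on 1448818_at ran the other way, with -0.85.

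Of the 10 fibroblast markers, 6 were higher in the line numbered 2 within both genotypes and 1, Fn1, was lower, while Col1a1, Col1a2 and Thy1 did neither. The farthest apart was Pdgfra, a receptor that marks mesenchymal fibroblasts, with levels of 7.47 and 8.84 in RBP2-null lines, against 5.72 and 8.93 in wild-type lines. Its difference of 2.29 between the lines numbered 2 and 1 was exceeded by 0.037% of kept probe sets. The summed normalized signal of all 10 fibroblast markers was 41417 and 44814 in RBP2-null lines, against 40176 and 44447 in wild-type lines, so both lines numbered 2 were higher in a sum carried by the brightest markers. Of the 4 kept skeletal muscle markers, Acta1, a muscle actin, was higher in the lines numbered 1, with a normalized signal of 1137 and 226 in RBP2-null lines, against 663 and 295 in wild-type lines, but Des was higher in the lines numbered 2, and Ckm and Myod1 differed in direction between the genotypes. Of 4 kept leukocyte markers, 3 were lower in the line numbered 2 within both genotypes and 0 higher. Of 4 endothelial and of 5 neural markers, 2 were lower and 1 higher, and of 7 epithelial markers 0 were either. Summed signals of wild-type replicate 1 were the highest for epithelial markers, 918 against 570 to 768, and leukocyte markers, 342 against 207 to 228. The epithelial sum was carried by Epcam on 1447899_x_at, whose ending marks probes that can bind several transcripts, at 599 in wild-type replicate 1. Epcam, Krt5 and Krt14 were highest in that array, Krt18 and Cldn4 were lowest there, and Krt8 and Krt19 were neither. Shares over all kept probe sets are not given here. The part of these markers in the Sfrp1 and Sfrp2 values was not tested.

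**Figure D3:**
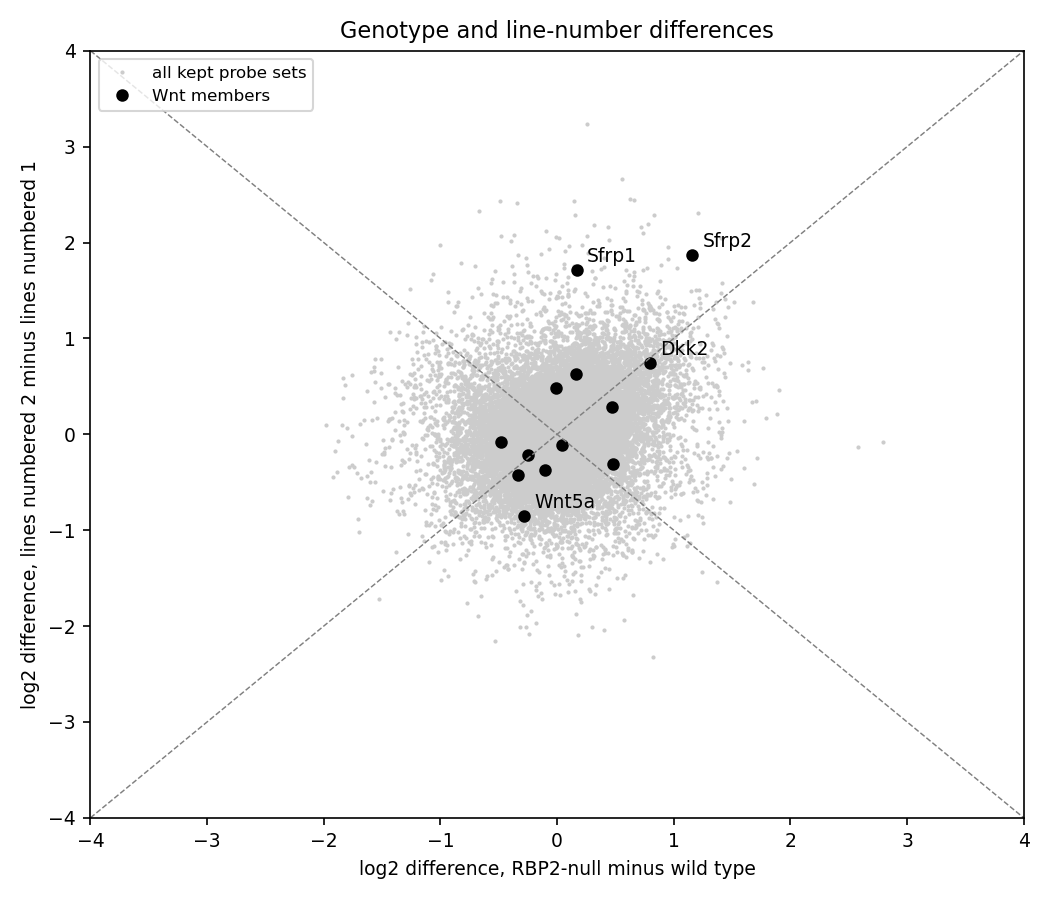
Log2 difference between genotypes (x axis, RBP2-null minus wild type) and between line numbers (y axis, lines numbered 2 minus lines numbered 1) for all 27022 kept probe sets (grey) and the 13 of the members (black), with dashed lines where both are of equal size. Sfrp2 lies at 1.16 and 1.87 and the labelled Sfrp1 probe set at 0.17 and 1.71, while Dkk2 lies near the diagonal at 0.80 and 0.74.

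Patterns over the 4 lines were compared by the Euclidean distance between probe sets, each centred on its own mean, for the members whose brightest probe set spanned at least 1 log2 unit, which were Sfrp2 and Dkk2. The genes nearest to Sfrp2 were Lum, a small proteoglycan of collagenous matrix, at a distance of 0.19, and Mme, a cell surface peptidase, at 0.45. Lum had 6.29 and 8.29 in RBP2-null lines, against 5.52 and 6.99 in wild-type lines, the same order of lines as Sfrp2. Nearest to Dkk2 were the dimmer probe sets of Adam1b and Nfasc, at 0.044 and 0.054, in which wild-type replicate 1 was again the low array. These distances rest on 4 arrays and were searched over the 23001 kept probe sets with exactly 1 symbol, apart from the member's own. They are given as a description.

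Over the rest of the pathway, 6 lists of other Wnt genes had 80 measured genes, each on its brightest kept probe set. None of the 80 passed the threshold in limma. An unadjusted limma p under 0.05 was found for 4, beside 2.98% of all kept probe sets, and the smallest was 0.0207. Estimates split evenly, 40 above 0 and 40 below, around a median of 0.0022. Both RBP2-null lines lay beyond both wild-type lines for 14 of the 80, or 17.5%, with 8 higher and 6 lower, beside 29.5% of all kept probe sets.

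Of the other ligands and their secretion and R-spondin partners, 8 of 14 had positive estimates and 6 negative ones, around a median of 0.19. Wnt6 had 4.01 and 5.44 in RBP2-null lines, against 6.88 and 5.75 in wild-type lines, a difference of -1.59 (SE 0.56) that was -0.88 without RBP2-null replicate 1. In that line its normalized signal was 7.15, below the 18.2 at the filter, so the probe set was kept through its other lines. Between lines of equal number the Wnt6 difference was -2.87 for those numbered 1 and -0.31 for those numbered 2. Rspo3, a secreted protein that strengthens Wnt signals, had 6.34 and 7.52 in RBP2-null lines, against 5.75 and 6.21 in wild-type lines, a difference of 0.95 (SE 0.41) that was 0.34 without RBP2-null replicate 2. Wnt6, Rspo3 and Wnt11 were among 4 of the 14 genes whose genotypes did not overlap, beside 29.5% of all kept probe sets. Wnt11, a ligand that like Wnt5a acts largely apart from beta-catenin, had a difference of -0.55 (SE 0.33) that was -0.24 without wild-type replicate 1.

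The receptors had 9 of 18 estimates above 0, 9 below and a median of -0.015. The Frizzled receptor Fzd6 had a difference of 0.50 (SE 0.28) on the brightest of its probe sets, and 0.021 and 0.11 on its others. The 0.50 of Fzd6 was 0.26 without wild-type replicate 1. Ror2, a receptor of Wnt5a, had 6.61 and 6.55 in RBP2-null lines, against 5.73 and 6.51 in wild-type lines, a difference of 0.46 that was 0.073 without wild-type replicate 1. Lgr6, a receptor of R-spondins, had -0.39 on one probe set and 0.092 on its dimmer one, and the first became -0.015 when RBP2-null replicate 1 was left out and -0.73 when RBP2-null replicate 2 was.

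The other secreted inhibitors had 3 of 5 estimates above 0, 2 below and a median of 0.18. Frzb, related to the Sfrp proteins, had -0.56 on the brightest of its probe sets and 0.0015 on the other, and Sfrp5 and Sfrp4 had -0.43 and 0.20. The -0.56 of Frzb was -0.13 without RBP2-null replicate 2 and -0.28 without wild-type replicate 1. Sfrp5 had 0.15 without wild-type replicate 1, and Sfrp4 had -0.016 without wild-type replicate 2. The other kept probe set of Sfrp5 had -0.23 with overlapping genotypes.

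The cytoplasmic relay had 6 of 18 estimates above 0, 12 below and a median of -0.12. Vangl2, a planar cell polarity protein, had 6.40 and 6.69 in RBP2-null lines, against 7.83 and 7.02 in wild-type lines, a difference of -0.88 (SE 0.33), which was -0.49 without wild-type replicate 1, and its other probe sets had -0.058 and -0.18. Gsk3a, a kinase that marks beta-catenin for destruction, had 8.79 and 9.16 in RBP2-null lines, against 9.56 and 9.51 in wild-type lines, a difference of -0.56 (SE 0.21) that was -0.37 without RBP2-null replicate 1. Prickle1, another polarity protein, had 0.48 (SE 0.31), or 0.28 without RBP2-null replicate 2, and its other kept probe sets had 0.041 and 0.30 with overlapping genotypes. Vangl2 and Gsk3a, with Wnt6 and Rspo3, are the 4 genes at an unadjusted limma p under 0.05, of 0.0266, 0.0287, 0.0207 and 0.0494 in that order.

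Nuclear factors had 7 of 11 estimates above 0, 4 below and a median of 0.14. The corepressor Tle2 had 0.78 (SE 0.42), Tcf7l2, a relative of Lef1, had 0.35 (SE 0.28), and Bcl9l, a coactivator of beta-catenin, had -0.28. Tle2 had 0.41 without RBP2-null replicate 2, and without wild-type replicate 1 Tcf7l2 had 0.047 and Bcl9l -0.026. The dimmer kept probe set of Bcl9l had -0.26 with overlapping genotypes. The 4 kept Tcf7l2 probe sets all lay above 0, from 0.19 to 0.46. Among further target genes 7 of 14 estimates were positive and 7 negative, around a median of 0.019. Genotypes that did not overlap were found for 0 of the 14, beside 29.5% of all kept probe sets. Twist1, a mesenchymal transcription factor, had 0.40, or 0.098 without wild-type replicate 1. The secreted protein Ccn4 had -0.29 and the feedback inhibitor Nkd1 had -0.33, which were 0.097 without RBP2-null replicate 2 and 0.012 without wild-type replicate 1. On its other kept probe set Ccn4 had -0.35, and Nkd1 had -0.49 and -0.21 on its others, all with overlapping genotypes.

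**Figure D4:**
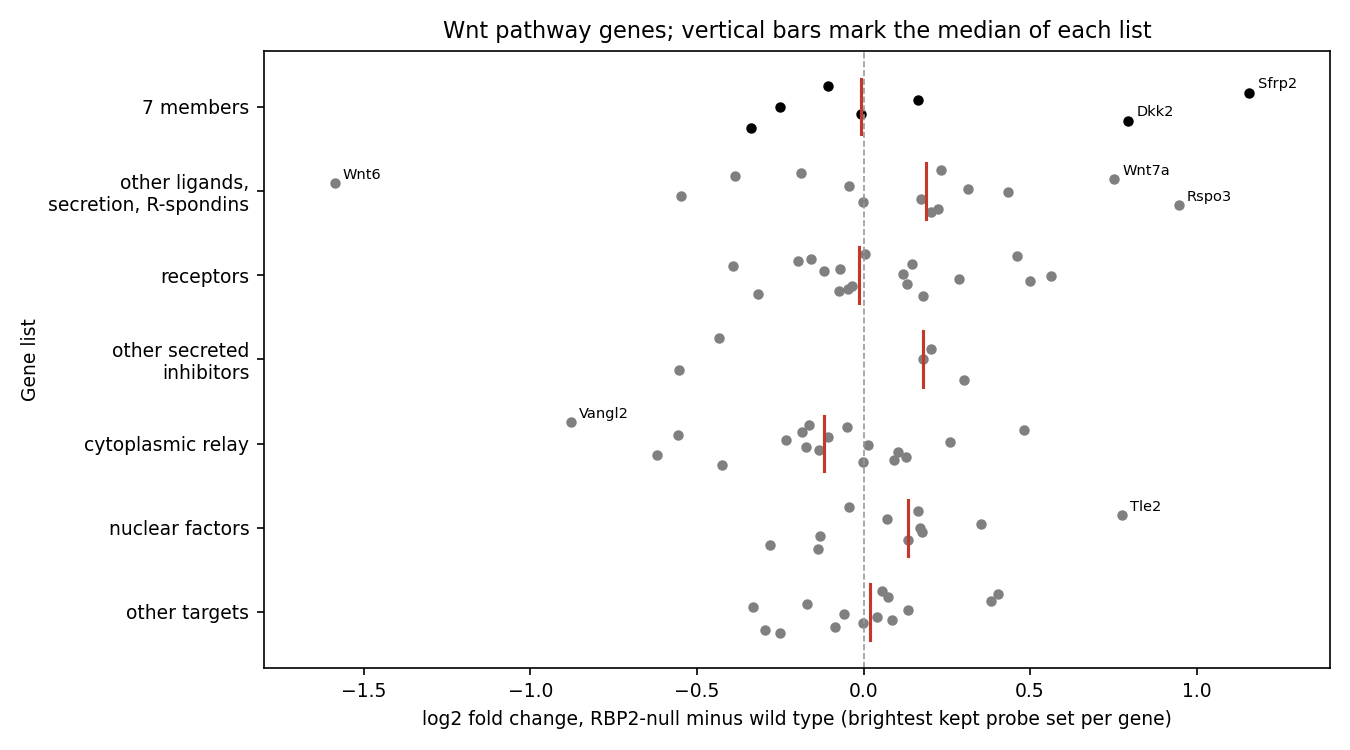
Log2 difference, RBP2-null minus wild type, of the brightest kept probe set of each gene, for the 7 members and the 6 lists of other Wnt genes down the y axis, with red bars at the median of each list. The medians lie between -0.12 and 0.19, and Wnt6 at -1.59 and Sfrp2 at 1.16 are the farthest from 0.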

How the data were processed

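RNA of 2 RBP2-null and 2 wild-type fibroblast lines had been measured on 1-colour Affymetrix arrays, per the labels. The values the authors deposited are linear intensities, 1 for each probe set on each array. They were summarised by methods not given in the sources used here. Across arrays the largest 2% trimmed mean was 2.46 times the smallest. Control probes were left out and the 45037 other probe sets quantile normalized, a pseudocount of 9 (their 25th percentile) was added, log2 taken, and the upper 60% by mean kept. The genotypes were compared with limma 3.58.1 (R 4.3.3; lmFit, eBayes with a mean-dependent prior variance; two-sided; Benjamini-Hochberg over all 27022 kept probe sets). The procedure was tested on simulated data with changes much larger than any member difference. That test therefore does not cover differences of the size seen here. Gene symbols came from the platform annotation, and a probe set with more than 1 symbol was given no name.

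The members and lists were chosen with earlier results of these data known. All probe sets of the members are given, and in each of 6 lists of other Wnt genes up to 3 genes with the smallest unadjusted p. Alternatives covered pseudocount, filter, scaling, variance model, cross-binding probe sets, pairing, probe set per gene, and each array left out. Nothing says that the lines came from separate litters or days, so the p-values rest on the spread between these 4 lines alone, which may be technical. The number of arrays limits the precision.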

Additional observations from a re-analysis of the deposited data

How the results depend on the processing

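No member and no other Wnt gene passed the threshold under any alternative run. Over all probe sets 1 passed in the reported setting, and 0 without the filter, without scaling and without the mean-dependent variance, 2 with median-centred arrays, 49 with the replicate number as a block, and 0 to 41 with an array left out, the 41 without wild-type replicate 2. The numbers were not taken as pairs: the labels give them no meaning, and with only 2 pairs the correlation of the line differences of the genotypes, 0.11, is a hint at most. The replicate block left 0 members past the threshold.

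Unscaled arrays shifted the median of all probe sets by 0.38 and median-centred arrays by 0.18. Relative to that shift both settings give the same estimates by construction, since centring moves each array by a constant. The members that turned sign there were Wnt5a on 1436791_at, to 0.010, Sfrp1 on 1448395_at, to -0.023, and Dkk3 on 1417312_at, to 0.084. Of the other planned settings that keep all arrays, the filter, variance model, cross-binding and block settings leave each estimate unchanged by design. Their signs therefore could not turn. The pseudocounts can change an estimate, and they turned the sign of no member and of no other named gene.

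Leaving out 1 array turned the sign of 9 of the 13 kept member probe sets, beside 56.6% of all kept probe sets. The ranges were -0.50 to 0.29, -0.71 to 0.14 and -0.23 to 1.12 for Wnt5a on 1436791_at, 1448818_at and 1437673_at, -0.19 to 0.54 and -1.06 to 1.36 for Sfrp1 on 1428136_at and 1448395_at, -0.071 to 1.65 for Dkk2, -0.36 to 0.33 and -0.14 to 0.23 for Dkk3 on 1417312_at and 1448669_at, and -0.84 to 0.15 for Axin2. Those of Sfrp5, Sfrp4, Ccn4 and Nkd1 were -1.0 to 0.15, -0.016 to 0.44, -0.67 to 0.097 and -0.67 to 0.012. Apart from what leaving out an array shows, the cause was not tested. Probe sets 1437673_at, 1456976_at, 1448395_at and that of Axin2 were left out by keeping only the upper 40%, and 1438620_x_at where cross-binding probe sets were left out, so these settings gave no value for them.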
